A study of Homo sapiens with 11 samples.

Results

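The genes described here are the 46 listed ligands, binding proteins, receptors, SMADs, repressors and targets of the TGF-beta, activin and BMP pathways, taken by symbol from a table of 58721 genes. They were read in A375, an established human melanoma cell line with an activating BRAF mutation, whose genotype the labels give as wild type in every sample. Of the 11 poly(A) RNA libraries, 5 came from withdrawn cells, which had 8 weeks in trametinib and were sampled 4 weeks after it had been taken away. Another 5 came from persister cells kept in 2 nM trametinib for 8 weeks. The remaining library came from untreated parental cells. Trametinib inhibits the MEK kinases downstream of BRAF, and persister cells are those that live through the drug. The titles of the withdrawn samples carry the numbers of the persister cultures. All cells are 1 line. The labels do not tell whether the 5 persister cultures went through selection apart from each other, so the p-values speak for the spread of these samples, which may be technical.

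TGF-beta, activin and BMP ligands bind pairs of type II and type I receptor kinases, which phosphorylate receptor-regulated SMAD proteins. SMAD2 and SMAD3 carry the TGF-beta and activin signal, SMAD1, SMAD5 and SMAD9 the BMP signal, and both kinds act in the nucleus with SMAD4. Signalling is held in check by secreted proteins that trap the ligands and by inhibitory SMADs, which are themselves targets of the pathway. In melanoma the pathway is known for its part in changes of cell state and in tolerance of MAPK pathway inhibitors.

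Total counts ranged from 56513920 to 82984566 per library. Levels are in CPM, read counts scaled to a common library size. The p-values come from the quasi-likelihood test of edgeR over 23693 genes with Benjamini-Hochberg adjustment, with calls made at an adjusted p under 0.05. Standard errors were derived from the F statistic of that test, as the absolute log2 fold change divided by the square root of F. The parental group holds 1 library and no spread of its own, so it was taken to vary like the others. The fit gave all groups the same spread per gene, though the groups differed in it. The chi-square of counts between 2 libraries, per degree of freedom, was 85.1 to 371 among persister pairs and 8.94 to 26.8 among withdrawn pairs. The shared spread may thus be too small for persister cells and too large for withdrawn cells. SOX10, a melanocyte lineage factor, stood at 792 to 838 CPM in withdrawn, 29.2 to 86.6 CPM in persister and 635 CPM in parental cells. The pigment gene MLANA went the other way, at 0.445 to 0.826 CPM in withdrawn, 11.0 to 23.5 CPM in persister and 1.15 CPM in parental cells, and of 8 melanocyte lineage markers tested 4 were higher and 3 lower in persister than parental cells. The summed level of 8 fibroblast markers, none of them at 0 in any group, was 21.2 to 32.2 CPM in withdrawn, 70.1 to 354 CPM in persister and 8.78 CPM in parental cells. In persister against parental cells 6 of these 8 were called higher and 1 lower. Persister cultures 1 and 5 had the lowest summed levels of 12 S phase genes, 658 and 322 CPM, against 1179 to 1789 CPM in the other persister cultures. The same sum was 1253 to 1355 CPM in withdrawn and 1763 CPM in parental cells. In bulk RNA, fewer cells of a kind and less RNA per cell cannot be told apart.

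The 46 genes were compared between persister and parental cells, to see what differed under the drug, and between withdrawn and persister cells, to see what changed once it was gone. Of the 46, 44 had enough counts to be tested. INHBB, a subunit of activin B, and GREM1, which encodes a BMP antagonist, did not: INHBB reached at most 0.0350 CPM in withdrawn cells, 0.0913 CPM in persister cells and 0.0153 CPM in parental cells, and GREM1 at most 0.0138 CPM in withdrawn cells, 0.0365 CPM in persister cells and 0 in parental cells. Of the 44 tested, 14 were called higher in persister cells than in the parental library and 9 lower, where 31.2% of all tested genes were called, 16.1% higher and 15.1% lower. In withdrawn against persister cells 14 were higher and 15 lower, where 52.5% of all tested genes were called, 24.5% higher and 28% lower. The median log2 fold change of the members was 0.13 in persister over parental cells and -0.12 in withdrawn over persister cells, beside 0.09 and -0.03 over all tested genes. The comparisons share the persister libraries, so opposite signs in them are no independent result. In a fit of the persister and parental libraries alone, the withdrawn cultures add nothing to the spread and 11.3% of all genes were called. There 6 members were higher and 6 lower in persister than parental cells. The calls of TGFB1, TGFBR2, SMAD4, SMAD6, SMAD7, BMPR1A, BMPR1B, LTBP2, ID1, ID2 and FST ended there, with the same directions. The 22 members whose log2 fold change reached 1 in either direction with a call are given library by library below.

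**Figure D1:**
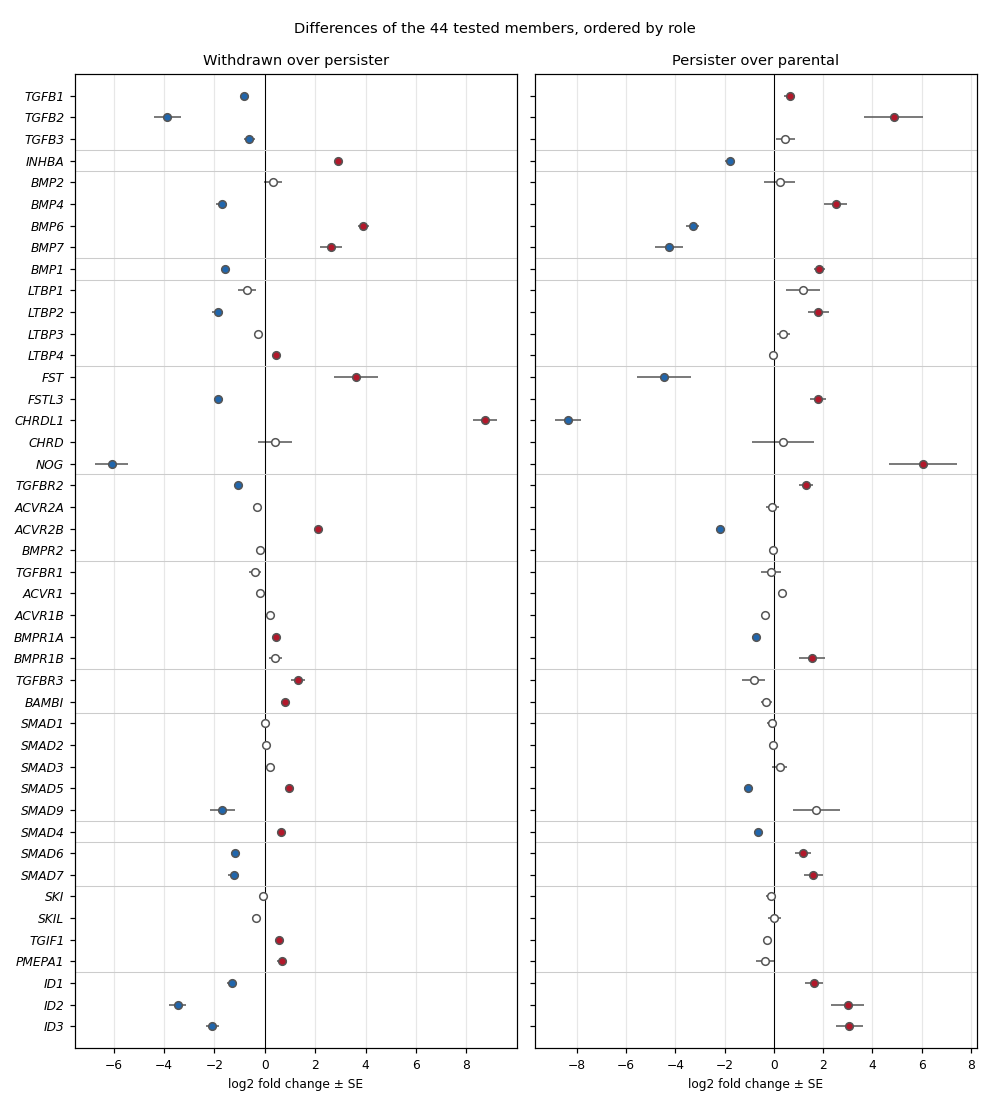
Log2 fold change with its SE for the 44 tested members, ordered by role, in withdrawn over persister cells (left panel) and persister over parental cells (right panel). Filled points, red above 0 and blue below 0, had an adjusted p under 0.05, and open points did not. CHRDL1 and NOG lie farthest from 0 in both panels, and SMAD2 lies near 0 in both.

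Among the TGF-beta ligands, TGFB2 had the largest difference. It stood at 2.33, 1.17, 3.38, 4.90 and 2.38 CPM in withdrawn cultures 1 to 5, at 22.7, 20.3, 55.6, 88.0 and 20.6 CPM in persister cultures 1 to 5 and at 1.42 CPM in parental cells. Every persister culture lay above every withdrawn culture and the parental library, and persister 3 and 4 were the highest. TGFB2 rose in persister over parental cells (log2 fold change 4.86 ± 1.19 (SE), adjusted p = 0.0109) and fell in withdrawn over persister cells (log2 fold change -3.87 ± 0.54 (SE), adjusted p = 0.00014). The TGFB2 gene lies on chromosome 1, 218346235 to 218444619 (GRCh38), and 26.6% of its exon bases are shared with the non-coding TGFB2-OT1 on the same strand. Reads in these shared bases cannot be assigned to 1 of the 2 genes. TGFB1 averaged 59.6 ± 5.47 CPM in withdrawn and 105 ± 18.9 CPM in persister cells (SD, n = 5 each), against 67.3 CPM in parental cells. It was higher in persister than parental cells (0.64, adjusted p = 0.0446), a call that ended when persister 3 or any 1 withdrawn library was left out, with adjusted p from 0.0564 to 0.0635, and with DESeq2 size factors (0.63, adjusted p = 0.0504). Its fall in withdrawn over persister cells (-0.81, adjusted p = 0.000172) kept the call in every alternative. TGFB3 averaged 4.06 ± 0.395 CPM in withdrawn, 6.20 ± 1.97 CPM in persister and 4.50 CPM in parental cells. Its lower level in withdrawn than persister cells (-0.61, adjusted p = 0.0308) lost the call without persister 4 or 5 or without withdrawn 2, 3, 4 or 5, with adjusted p from 0.0502 to 0.0686. Per kilobase of exon, TGFB1 had the highest level of these 3 ligands in persister cells, 32.3 CPM per kb, beside 8.04 for TGFB2 and 1.26 for TGFB3.

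INHBA encodes the subunit of activin A, a ligand that acts through SMAD2 and SMAD3. Its level was 374, 539, 394, 422 and 489.9 CPM in withdrawn cultures 1 to 5, 56.1, 53.2, 59.9, 68.4 and 54.4 CPM in persister cultures 1 to 5 and 203 CPM in parental cells. The ranges did not overlap, with withdrawn cultures highest, parental cells between and persister cultures lowest. INHBA fell in persister below parental cells (log2 fold change -1.80 ± 0.18 (SE), adjusted p = 3.71e-05) and rose in withdrawn over persister cells (log2 fold change 2.93 ± 0.12 (SE), adjusted p = 2.78e-08), where it was 7.60-fold higher. The gene lies on chromosome 7, 41667168 to 41705834 (GRCh38).

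The 4 BMP ligands did not move together. BMP4 was at 4.67, 4.50, 4.70, 4.16 and 4.43 CPM in withdrawn cultures, at 17.7, 16.4, 19.7, 12.4 and 7.39 CPM in persister cultures and at 2.59 CPM in parental cells. All 5 persister cultures stood above the rest, with persister 5 nearest to the withdrawn cultures, and BMP4 rose in persister over parental cells (log2 fold change 2.51 ± 0.46 (SE), adjusted p = 0.00209) and fell in withdrawn over persister cells (log2 fold change -1.71 ± 0.22 (SE), adjusted p = 6.74e-05). BMP6 went the other way, at 14.2, 12.2, 14.8, 14.2 and 13.4 CPM in withdrawn, 0.553, 1.29, 0.791, 1.12 and 0.806 CPM in persister and 9.01 CPM in parental cells. It was lower in persister than parental cells (log2 fold change -3.30 ± 0.28 (SE), adjusted p = 1.21e-05) and higher in withdrawn than persister cells (log2 fold change 3.92 ± 0.21 (SE), adjusted p = 1.20e-07), and no persister culture came near either range. BMP7 was low throughout, at 1.79, 1.14, 0.727, 1.01 and 1.05 CPM in withdrawn, 0.0614, 0.129, 0.152, 0.146 and 0.423 CPM in persister and 3.56 CPM in parental cells. Its log2 fold change was -4.26 ± 0.57 (SE) in persister over parental cells (adjusted p = 0.00032) and 2.62 ± 0.44 in withdrawn over persister cells (adjusted p = 0.000388), and all withdrawn cultures lay below the parental library. BMP2 was called in neither comparison, at 9.97 to 18.6 CPM in withdrawn, 5.85 to 22.3 CPM in persister and 9.38 CPM in parental cells. Persister 5 had the highest BMP2 level, and without it BMP2 was called higher in withdrawn than persister cells (0.77, adjusted p = 0.0202). Per kilobase, BMP4 was the most abundant of the 4 in persister cells (4.78 CPM per kb) and BMP6 in withdrawn (4.95) and parental cells (3.24).

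BMP1 is a proteinase of the matrix rather than a BMP ligand: it trims procollagens and cleaves chordin, and it was measured at 26.1, 24.2, 26.6, 25.7 and 26.1 CPM in withdrawn, 76.4, 56.0, 83.0, 72.7 and 94.8 CPM in persister and 21.2 CPM in parental cells. Withdrawn cultures kept within a narrow range, below every persister culture. BMP1 rose in persister over parental cells (log2 fold change 1.85 ± 0.24 (SE), adjusted p = 0.000234) and fell in withdrawn over persister cells (log2 fold change -1.57 ± 0.12 (SE), adjusted p = 1.46e-06). The latent TGF-beta binding proteins tie latent TGF-beta to the matrix, except LTBP2, which is a matrix protein of the same family that does not bind it. LTBP2 was the one called in both comparisons, at 1.91, 1.80, 1.94, 1.87 and 2.15 CPM in withdrawn, 7.66, 3.67, 9.36, 6.76 and 7.76 CPM in persister and 2.02 CPM in parental cells. Persister 2 was the lowest persister culture and still lay above all withdrawn cultures, and the log2 fold changes were 1.80 ± 0.42 in persister over parental cells (adjusted p = 0.00801) and -1.86 ± 0.22 in withdrawn over persister cells (adjusted p = 3.03e-05). LTBP4 was higher in withdrawn than persister cells (0.44, adjusted p = 0.00312), at 55.6 ± 1.52 CPM in withdrawn and 40.9 ± 5.88 CPM in persister cells (SD, n = 5 each), against 41.5 CPM in parental cells. LTBP3, the most abundant of the family per kilobase, had 176 to 217 CPM in withdrawn, 192 to 333 CPM in persister and 179 CPM in parental cells and was called in neither. LTBP1 ranged from 8.65 to 12.9 CPM in withdrawn and 6.42 to 34.6 CPM in persister cultures, beside 7.86 CPM in parental cells. Persister 1 was its lowest culture, and without that library LTBP1 was called lower in withdrawn than persister cells (-0.91, adjusted p = 0.0214), and without persister 1 and 5 it was also called higher in persister than parental cells (1.01, adjusted p = 0.0381).

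The secreted antagonists held the largest differences of all members, in opposite directions. CHRDL1, a BMP antagonist, stood at 90.7, 139.7, 84.4, 103 and 119 CPM in withdrawn cultures 1 to 5, at 0.0307, 0.387, 0.213, 0.499 and 0.109 CPM in persister cultures 1 to 5 and at 83.0 CPM in parental cells. No persister culture reached 1 CPM, while every withdrawn culture was above the parental library. CHRDL1 fell in persister below parental cells (log2 fold change -8.36 ± 0.51 (SE), adjusted p = 2.42e-06) and rose in withdrawn over persister cells (log2 fold change 8.73 ± 0.47 (SE), adjusted p = 1.97e-07). FST encodes follistatin, which binds and neutralises activin. Its level was 192, 218, 243, 239.6 and 286 CPM in withdrawn, 5.85, 75.0, 3.85, 5.10 and 5.78 CPM in persister and 421 CPM in parental cells. Persister 2 stood apart from the other 4 persister cultures, and all 5 lay below the withdrawn and parental ranges. FST was lower in persister than parental cells (log2 fold change -4.46 ± 1.10 (SE), adjusted p = 0.0113) and higher in withdrawn than persister cells (log2 fold change 3.63 ± 0.86 (SE), adjusted p = 0.00458). Without persister 2 the log2 fold changes were -6.35, adjusted p = 8.31e-08, in persister over parental cells and 5.52, adjusted p = 1.77e-08, in withdrawn over persister cells. With the culture number as a block, FST gave 4.90, adjusted p = 0.0013, in withdrawn over persister cells. Without persister 1 and 5 its persister against parental call ended (-3.91, adjusted p = 0.0527). DESeq2 gave FST no adjusted p, and so no call, in either comparison.

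FSTL3, an activin antagonist related to follistatin, moved against FST, at 11.2, 14.5, 16.5, 7.94 and 14.1 CPM in withdrawn, 38.1, 49.4, 51.7, 44.7 and 47.1 CPM in persister and 13.4 CPM in parental cells. It rose in persister over parental cells (log2 fold change 1.79 ± 0.34 (SE), adjusted p = 0.00253) and fell in withdrawn over persister cells (log2 fold change -1.85 ± 0.18 (SE), adjusted p = 6.66e-06), with all persister cultures above all others. The BMP antagonist NOG (noggin) was at or near 0 outside persister cells, with 0.0296, 0.0175, 0.0297, 0 and 0 CPM in withdrawn, 0.369, 1.35, 1.92, 1.16 and 0.888 CPM in persister and 0.0153 CPM in parental cells. NOG had 1 count in the parental library and 383 counts over the 5 persister libraries, a ratio of 73.5 with a 95% counting interval from 13.1 to 2912, which covers counting error only. It was called higher in persister than parental cells (adjusted p = 0.00672) and lower in withdrawn than persister cells (log2 fold change -6.07 ± 0.66 (SE), adjusted p = 1.61e-05). CHRD, which encodes the BMP antagonist chordin, stayed at or below 0.220 CPM in withdrawn cells, 0.219 CPM in persister cells and 0.0612 CPM in parental cells and was called in neither comparison. Per kilobase, FST was the most abundant antagonist in withdrawn (79.4 CPM per kb) and parental cells (142), and FSTL3 in persister cells (15.1, beside 6.44 for FST, or 1.73 without persister 2).

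Promoter sequence from RefSeq (GRCh38.p14) is shown for FST and CHRDL1, the members with the largest falls in persister cells that have 1 listed start. Each run is the 250 bases before the start, 5′ to 3′ on the strand of the gene. FST is at chr5:53480379-53480628, plus strand, and CHRDL1 at chrX:110795818-110796067, minus strand. Capitals mark matches, on either strand, to the palindromic SMAD element GTCTAGAC, the SMAD box CAGAC, the GC-rich SMAD element GGCGCC or the AP-1 element TGANTCA, none of which contains another.
FST: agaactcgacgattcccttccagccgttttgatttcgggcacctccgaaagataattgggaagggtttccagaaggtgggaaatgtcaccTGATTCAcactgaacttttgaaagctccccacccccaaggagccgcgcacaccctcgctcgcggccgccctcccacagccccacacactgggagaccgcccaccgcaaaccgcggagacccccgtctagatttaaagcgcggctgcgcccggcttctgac
CHRDL1: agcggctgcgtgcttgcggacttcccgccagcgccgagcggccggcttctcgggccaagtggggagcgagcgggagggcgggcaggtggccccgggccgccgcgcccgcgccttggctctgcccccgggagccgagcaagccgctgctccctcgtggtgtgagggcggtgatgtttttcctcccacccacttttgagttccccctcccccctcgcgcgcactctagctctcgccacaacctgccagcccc
FST had 1 match, an AP-1 element that starts 160 bases before the start, and CHRDL1 had none of the 4. Over all 35116 windows of this length in the RefSeq table, 6.57% held the AP-1 element, 38% the SMAD box, 16.4% the GC-rich element and 0.182% the palindrome. A match is a description of the letters and not of a bound site.

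**Figure D2:**
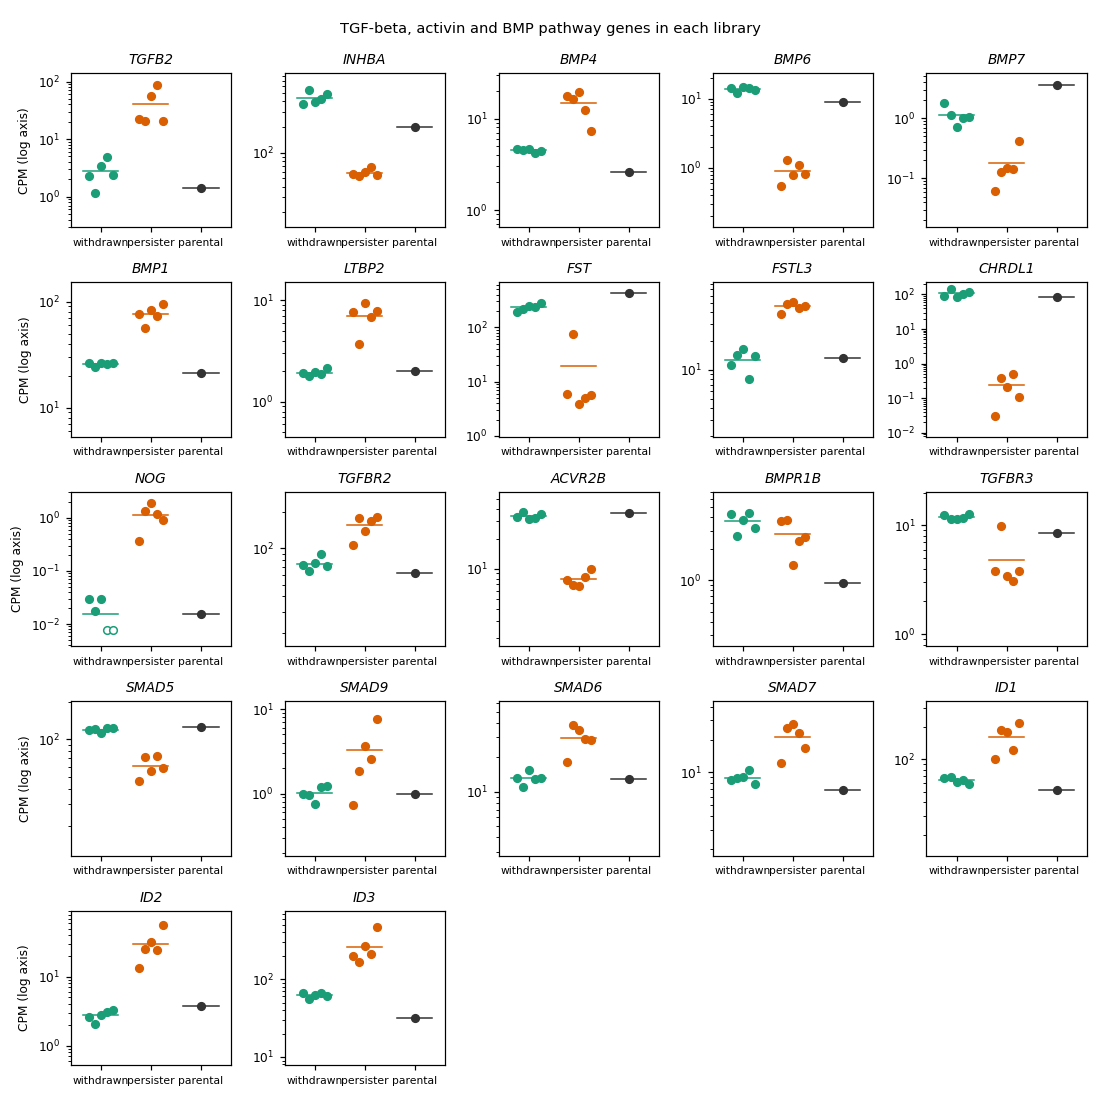
CPM on a log axis in each library for the 22 members called with a log2 fold change of at least 1 in either direction, with withdrawn cultures 1 to 5 on the left, persister cultures 1 to 5 in the middle and parental cells on the right of each panel, and lines at group means. The open points for NOG are withdrawn libraries with 0 counts, drawn at the foot of the axis. Persister 2 stands above the other persister cultures for FST and TGFBR3, and persister 5 for ID2, ID3 and SMAD9.

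Among the type II receptors, TGFBR2 and ACVR2B differed in opposite directions. TGFBR2, the type II receptor of TGF-beta, was at 72.3, 64.5, 75.4, 89.0 and 71.4 CPM in withdrawn, 106, 179, 139, 169 and 181 CPM in persister and 62.3 CPM in parental cells. It rose in persister over parental cells (log2 fold change 1.31 ± 0.28 (SE), adjusted p = 0.00462) and fell in withdrawn over persister cells (log2 fold change -1.05 ± 0.15 (SE), adjusted p = 0.000103), with persister 1 the lowest persister culture and above all withdrawn ones. ACVR2B, a type II receptor of activins, was at 32.9, 37.3, 31.7, 32.3 and 35.6 CPM in withdrawn, 7.70, 6.93, 6.68, 8.33 and 10.0 CPM in persister and 36.4 CPM in parental cells. It fell in persister below parental cells (log2 fold change -2.20 ± 0.17 (SE), adjusted p = 7.76e-06) and rose in withdrawn over persister cells (log2 fold change 2.10 ± 0.12 (SE), adjusted p = 1.55e-07), and its persister cultures all lay below the withdrawn and parental levels. The other activin type II receptor, ACVR2A, had 6.98 to 9.74 CPM in withdrawn, 7.13 to 13.0 CPM in persister and 11.1 CPM in parental cells. BMPR2, the BMP type II receptor, had 41.1 to 47.6 CPM in withdrawn, 42.1 to 62.9 CPM in persister and 51.7 CPM in parental cells. Neither passed the test in either comparison, though ACVR2A was called lower in withdrawn than persister cells without persister 1 (-0.42, adjusted p = 0.0146). In persister cells TGFBR2 was the most abundant type II receptor per kilobase (32.9 CPM per kb) and ACVR2B the least (0.504), while in parental cells the 2 stood at 13.3 and 2.31 CPM per kb.

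Of the type I receptors, 2 were called. BMPR1A, a BMP type I receptor, averaged 59.2 ± 2.26 CPM in withdrawn and 43.0 ± 5.89 CPM in persister cells (SD, n = 5 each), against 70.4 CPM in parental cells, lower in persister than parental cells (-0.71, adjusted p = 0.00579) and higher in withdrawn than persister cells (0.46, adjusted p = 0.00173). BMPR1B, the related receptor, was at 4.36, 2.66, 3.81, 4.40 and 3.19 CPM in withdrawn, 3.69, 3.74, 1.40, 2.36 and 2.58 CPM in persister and 0.933 CPM in parental cells. The withdrawn and persister ranges overlapped and both lay above the parental library. BMPR1B was higher in persister than parental cells (log2 fold change 1.56 ± 0.52 (SE), adjusted p = 0.0401), a call that was lost when persister 1 or any of withdrawn 1, 3, 4 and 5 was left out (adjusted p from 0.0520 to 0.0549) and that limma-voom did not make (1.45, adjusted p = 0.0869). TGFBR1, ACVR1 and ACVR1B, the type I receptors of TGF-beta, of BMPs and of activin, were called in neither comparison. TGFBR1 had 34.6 to 41.8 CPM in withdrawn, 22.6 to 66.9 CPM in persister and 56.2 CPM in parental cells. Persister 1 was its lowest library, and without it TGFBR1 was called lower in withdrawn than persister cells (-0.58, adjusted p = 0.00162). ACVR1 had 26.2 to 30.5 CPM in withdrawn, 27.4 to 35.7 CPM in persister and 25.2 CPM in parental cells and was called lower in withdrawn than persister cells without persister 1 (-0.23, adjusted p = 0.0385). ACVR1B, at 25.8 to 29.4 CPM in withdrawn, 23.0 to 26.7 CPM in persister and 30.7 CPM in parental cells, was called in both comparisons without persister 5 (-0.38, adjusted p = 0.0292, in persister over parental cells and 0.23, adjusted p = 0.0202, in withdrawn over persister cells). With no library left out, DESeq2 also called ACVR1B in persister over parental (-0.36, adjusted p = 0.0352) and withdrawn over persister cells (0.18, adjusted p = 0.0474).

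TGFBR3 encodes betaglycan, a co-receptor that presents TGF-beta and also binds inhibin. It was at 12.4, 11.4, 11.4, 11.7 and 12.8 CPM in withdrawn, 3.81, 9.85, 3.42, 3.09 and 3.80 CPM in persister and 8.44 CPM in parental cells. Persister 2 lay between the parental library and the withdrawn cultures, and the other 4 persister cultures lay below both. TGFBR3 rose in withdrawn over persister cells (log2 fold change 1.32 ± 0.29 (SE), adjusted p = 0.00266) and was not called in persister over parental cells (-0.82, adjusted p = 0.202), but without persister 2 it was (-1.26, adjusted p = 0.000274). BAMBI, a pseudoreceptor without a kinase domain that dampens signalling, averaged 61.0 ± 9.07 CPM in withdrawn and 35.3 ± 5.18 CPM in persister cells (SD, n = 5 each), against 43.5 CPM in parental cells. It was called in withdrawn over persister cells (0.79, adjusted p = 0.000278).

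Of the receptor-regulated SMADs, SMAD1, SMAD2 and SMAD3 were called in neither comparison. SMAD2 stayed within 97.0 to 103 CPM in withdrawn and 90.8 to 105 CPM in persister cultures, at 98.0 CPM in parental cells, with log2 fold changes of -0.02 ± 0.11 (SE) in persister over parental and 0.04 ± 0.07 in withdrawn over persister cells. SMAD1 had 8.07 to 9.63 CPM in withdrawn, 6.68 to 9.85 CPM in persister and 9.07 CPM in parental cells. SMAD3 had 144 to 190.1 CPM in withdrawn, 94.6 to 209 CPM in persister and 123 CPM in parental cells, and it was called higher in withdrawn than persister cells without persister 2, its highest persister culture (0.40, adjusted p = 0.0228). The BMP-responsive SMAD5 was at 117, 121, 112, 122 and 124 CPM in withdrawn, 46.5, 71.6, 55.4, 72.9 and 58.2 CPM in persister and 126 CPM in parental cells. All persister cultures lay below the rest, and SMAD5 fell in persister below parental cells (log2 fold change -1.04 ± 0.19 (SE), adjusted p = 0.00182) and rose in withdrawn over persister cells (log2 fold change 0.97 ± 0.12 (SE), adjusted p = 3.77e-05). SMAD9, also a BMP SMAD, was at 0.978, 0.963, 0.756, 1.18 and 1.24 CPM in withdrawn, 0.737, 1.83, 3.64, 2.53 and 7.72 CPM in persister and 0.994 CPM in parental cells. The persister cultures were spread widely, with persister 1 below the parental library and persister 5 highest. SMAD9 fell in withdrawn below persister cells (log2 fold change -1.68 ± 0.50 (SE), adjusted p = 0.0142), a call that limma-voom did not make (-1.32, adjusted p = 0.0641). Its log2 fold change was -1.09, adjusted p = 0.0272, without persister 5. Without persister 1 and 5 it was called higher in persister than parental cells (1.43, adjusted p = 0.0248). The common partner SMAD4 averaged 53.1 ± 0.673 CPM in withdrawn and 33.9 ± 5.40 CPM in persister cells (SD, n = 5 each), against 52.8 CPM in parental cells, lower in persister than parental cells (-0.64, adjusted p = 0.0147) and higher in withdrawn than persister cells (0.65, adjusted p = 0.000285). Per kilobase, SMAD3 was the most abundant receptor-regulated SMAD in withdrawn and persister cells, at 18.6 and 15.9 CPM per kb, and in parental cells SMAD3 and SMAD5 stood at 13.5 and 13.9 CPM per kb. The length used is that of all annotated exons of a gene merged, 36.4 kb for SMAD2, 9.11 kb for SMAD3 and 9.04 kb for SMAD5. Ranks per kilobase depend on it, and SMAD2 is placed low by it.

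**Figure D3:**
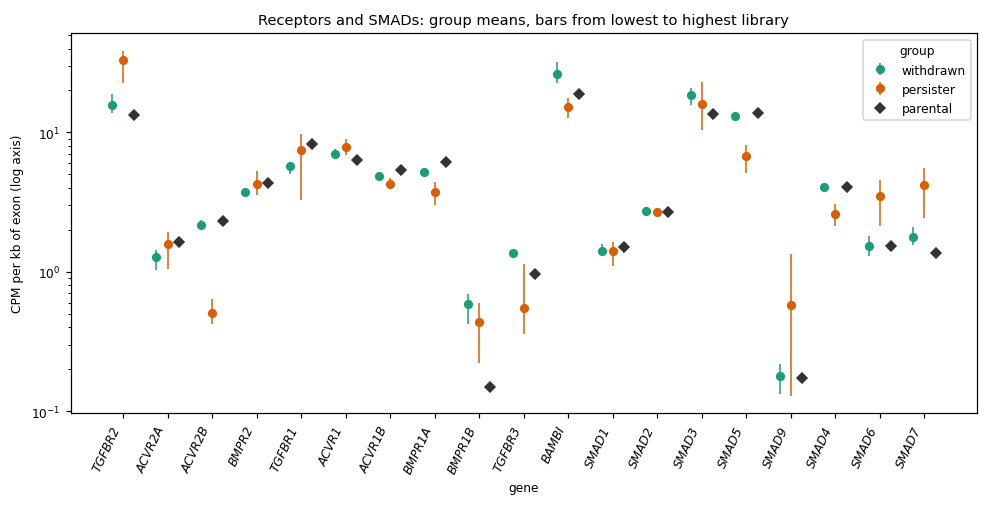
Mean level in CPM per kb of exon on a log axis for the receptors and SMADs in withdrawn, persister and parental cells, with bars from the lowest to the highest library of the 5 withdrawn and the 5 persister cultures. ACVR2B and SMAD5 are lower and TGFBR2, SMAD6 and SMAD7 higher in persister cells, while SMAD2 is at about the same level in all groups. Levels of different genes depend on the merged length of all annotated exons, 36.4 kb for SMAD2.

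The inhibitory SMADs and the ID genes, known as targets of TGF-beta or BMP signalling, were higher in persister cells. PMEPA1, a TGF-beta target given below, was not called in persister against parental cells. SMAD6, which mainly restrains BMP signalling, was at 13.3, 11.1, 15.5, 13.0 and 13.2 CPM in withdrawn, 18.2, 38.7, 34.5, 29.0 and 28.4 CPM in persister and 13.1 CPM in parental cells. It rose in persister over parental cells (log2 fold change 1.19 ± 0.33 (SE), adjusted p = 0.0188) and fell in withdrawn over persister cells (log2 fold change -1.17 ± 0.18 (SE), adjusted p = 0.000192). SMAD7, which restrains both TGF-beta and BMP receptors, was at 8.46, 8.86, 8.99, 10.5 and 7.83 CPM in withdrawn, 12.2, 25.6, 28.0, 22.8 and 16.7 CPM in persister and 6.91 CPM in parental cells. It also rose in persister over parental cells (log2 fold change 1.61 ± 0.39 (SE), adjusted p = 0.00997) and fell in withdrawn over persister cells (log2 fold change -1.24 ± 0.20 (SE), adjusted p = 0.000355), and for both genes persister 1 was the lowest persister culture and lay above all withdrawn cultures.

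ID1, ID2 and ID3 encode helix-loop-helix proteins without a DNA-binding region, which hold back other transcription factors of that family, and they are well known BMP targets. ID1 was at 67.1, 69.2, 61.6, 64.0 and 58.6 CPM in withdrawn, 100.5, 185, 178, 121 and 215 CPM in persister and 51.6 CPM in parental cells. It rose in persister over parental cells (log2 fold change 1.63 ± 0.35 (SE), adjusted p = 0.00537) and fell in withdrawn over persister cells (log2 fold change -1.32 ± 0.18 (SE), adjusted p = 0.000108). ID2 was at 2.59, 2.08, 2.80, 3.09 and 3.30 CPM in withdrawn, 13.4, 25.7, 31.6, 24.2 and 56.8 CPM in persister and 3.79 CPM in parental cells. Its rise in persister over parental cells (log2 fold change 3.00 ± 0.68 (SE), adjusted p = 0.00708) and its fall in withdrawn below persister cells (log2 fold change -3.45 ± 0.34 (SE), adjusted p = 1.20e-05) were both larger than those of ID1 in log2 fold change. ID3 was at 66.9, 55.8, 62.5, 67.4 and 60.0 CPM in withdrawn, 197, 167, 269.5, 209 and 476 CPM in persister and 31.4 CPM in parental cells. ID3 rose in persister over parental cells (log2 fold change 3.07 ± 0.54 (SE), adjusted p = 0.00187) and fell in withdrawn over persister cells (log2 fold change -2.08 ± 0.26 (SE), adjusted p = 5.59e-05). Persister 5 was the highest culture for all 3 ID genes, and no withdrawn culture overlapped a persister culture. Persister 5 also had the lowest S phase sum (322 CPM) and persister 1 the next lowest (658 CPM). Persister 1 was the lowest persister culture for ID1 and ID2, and persister 2 for ID3. A link of these levels to the cell cycle was not tested. Leaving out persister 1 and 5 left calls in persister over parental cells for ID1 (1.65, adjusted p = 0.000303), ID2 (2.84, adjusted p = 4.25e-05), ID3 (2.78, adjusted p = 3.45e-05), SMAD6 (1.39, adjusted p = 0.000515) and SMAD7 (1.89, adjusted p = 6.26e-05). In the fit of the persister and parental libraries alone, ID3 kept its call (3.07, adjusted p = 0.0321), while ID1 (1.64, adjusted p = 0.0616), ID2 (3.00, adjusted p = 0.057), SMAD6 (1.19, adjusted p = 0.104) and SMAD7 (1.61, adjusted p = 0.0788) did not. Per kilobase, ID3 and ID1 were at 147 and 129.6 CPM per kb in persister cells and ID2 at 13.8.

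The promoters of ID1, ID2, ID3 and SMAD6, genes that rose together and have 1 listed start each in the RefSeq table, are shown as above for the 250 bases before the start. ID1 is at chr20:31605039-31605288, plus strand, ID2 at chr2:8681806-8682055, plus strand, ID3 at chr1:23559502-23559751, minus strand and SMAD6 at chr15:66701986-66702235, plus strand (GRCh38.p14).
ID1: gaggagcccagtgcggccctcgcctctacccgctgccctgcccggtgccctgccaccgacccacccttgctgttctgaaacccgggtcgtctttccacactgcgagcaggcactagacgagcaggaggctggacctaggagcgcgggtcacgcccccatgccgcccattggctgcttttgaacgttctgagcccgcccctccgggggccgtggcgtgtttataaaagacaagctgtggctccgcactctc
ID2: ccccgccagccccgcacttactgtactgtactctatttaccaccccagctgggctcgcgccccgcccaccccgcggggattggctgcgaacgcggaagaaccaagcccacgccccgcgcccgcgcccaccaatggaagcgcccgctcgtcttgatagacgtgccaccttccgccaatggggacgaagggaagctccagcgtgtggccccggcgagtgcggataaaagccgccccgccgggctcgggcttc
ID3: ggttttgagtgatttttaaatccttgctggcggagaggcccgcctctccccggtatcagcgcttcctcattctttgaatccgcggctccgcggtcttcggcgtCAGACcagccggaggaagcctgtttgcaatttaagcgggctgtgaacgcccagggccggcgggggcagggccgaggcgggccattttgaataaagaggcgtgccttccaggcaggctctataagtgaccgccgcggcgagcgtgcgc
SMAD6: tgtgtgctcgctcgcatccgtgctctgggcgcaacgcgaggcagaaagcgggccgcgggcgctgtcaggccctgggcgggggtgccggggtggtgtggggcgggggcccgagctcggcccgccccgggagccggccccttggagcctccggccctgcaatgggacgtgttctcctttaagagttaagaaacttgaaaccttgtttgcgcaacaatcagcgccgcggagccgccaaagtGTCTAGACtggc
SMAD6 held the palindromic SMAD element, which starts 12 bases before the start and which 64 of the 35116 windows hold. ID3 held 1 SMAD box, which starts 147 bases before the start. ID1 and ID2 held none of the 4 motifs in these windows, which says only that these letters are not there. Of the 41 members with a RefSeq window, 1 held the palindrome, 19 the SMAD box, 18 the GC-rich element and 5 the AP-1 element in at least 1 of their windows, 82 windows in all. These counts are by gene and cannot be set against the shares by window given above, since a gene with several windows has more chances to match.

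Of the repressors of the pathway, none reached a log2 fold change of 1. SKI and SKIL, nuclear partners of SMADs that keep target genes off, were called in neither comparison. SKI had 85.7 to 92.8 CPM in withdrawn, 78.3 to 111 CPM in persister and 104 CPM in parental cells. SKIL had 29.7 to 37.8 CPM in withdrawn, 28.3 to 53.5 CPM in persister and 42.4 CPM in parental cells, and without persister 1, its lowest library, it was called lower in withdrawn than persister cells (-0.46, adjusted p = 0.00306). TGIF1, a nuclear corepressor, averaged 41.3 ± 1.83 CPM in withdrawn and 27.8 ± 3.40 CPM in persister cells (SD, n = 5 each), against 34.0 CPM in parental cells, and was higher in withdrawn than persister cells (0.57, adjusted p = 0.000373). PMEPA1, a membrane protein that holds back SMAD2 and SMAD3 and is itself a TGF-beta target, averaged 121 ± 11.1 CPM in withdrawn and 75.5 ± 26.0 CPM in persister cells, against 96.6 CPM in parental cells. It too was higher in withdrawn than persister cells (0.68, adjusted p = 0.019).

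**Figure D4:**
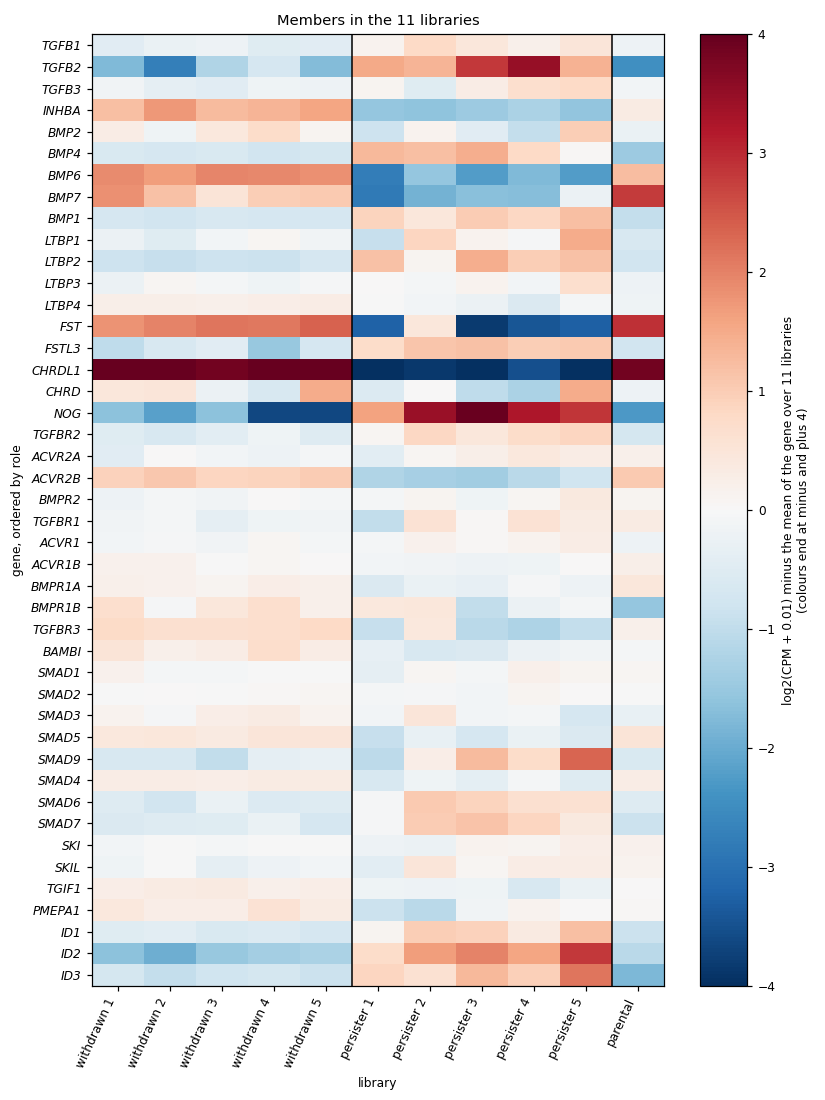
Log2(CPM + 0.01) of the 44 tested members in the 11 libraries, relative to the mean of each gene, with withdrawn cultures on the left, persister cultures in the middle and parental cells on the right. The 5 withdrawn libraries look alike for most genes, while persister 1 is lower than the other persister cultures for SMAD6, SMAD7, TGFBR1 and LTBP1, and persister 5 is higher for SMAD9, ID2 and ID3.

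Further pathway genes were read from 5 lists of 104 genes that are no members. Beside the counts of these lists, 16.1% of all tested genes were called higher and 15.1% lower in persister against parental cells. In withdrawn against persister cells the shares of all tested genes were 24.5% higher and 28% lower. In persister against parental cells, the target list had 7 higher and 1 lower of 19 tested, with a median log2 fold change of 0.78, and in withdrawn against persister cells 4 higher and 7 lower, with a median of -0.39. ATOH8 and MSX2, transcription factors that respond to BMP, were higher in persister than parental cells (3.61, adjusted p = 7.20e-05 for ATOH8 and 3.80, adjusted p = 0.000205 for MSX2), as was TGFBI, a matrix protein named for its induction by TGF-beta (2.39, adjusted p = 0.00109). In withdrawn over persister cells the same 3 had the smallest adjusted p of the list, at -3.39, adjusted p = 5.11e-07 for MSX2, -2.40, adjusted p = 1.12e-06 for ATOH8 and -1.95, adjusted p = 9.54e-06 for TGFBI. ID4, the other ID gene, went against ID1 to ID3, at 3.59 to 5.63 CPM in withdrawn, 1.03 to 4.29 CPM in persister and 8.58 CPM in parental cells, and was lower in persister than parental cells (-1.82, adjusted p = 0.0216; named after its values were seen). The fibroblast markers whose sums are given above moved in the same libraries, and their part in these differences was not tested.

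The list of other antagonists and carriers had 6 higher and 1 lower of 17 tested in persister against parental cells (median 1.30) and 2 higher and 8 lower in withdrawn against persister cells (median -0.78). FSTL1, a secreted glycoprotein that binds BMP4, was at 14.0 ± 1.49 CPM in withdrawn, 473 ± 94.9 CPM in persister and 10.8 CPM in parental cells (5.45, adjusted p = 2.23e-06 in persister over parental and -5.07, adjusted p = 6.96e-09 in withdrawn over persister cells). ITGB8, an integrin subunit that helps release active TGF-beta, was lower in persister than parental cells (-3.00, adjusted p = 2.48e-05) and higher in withdrawn than persister cells (3.14, adjusted p = 4.64e-07). FKBP1A, which binds type I receptors in their resting state, was higher in persister than parental cells (0.94, adjusted p = 0.00163), and THBS1, a matrix protein that activates latent TGF-beta, was lower in withdrawn than persister cells (-3.75, adjusted p = 1.08e-06). This list shares DCN with the fibroblast markers.

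The list of other ligands had 2 higher and 2 lower of 13 tested in persister against parental cells (median 0.40) and 4 in each direction in withdrawn against persister cells (median 0.20). BMP5 was at 0.0175 to 6.54 CPM in withdrawn, 29.7 to 153 CPM in persister and 0.0765 CPM in parental cells, higher in persister than parental cells (adjusted p = 0.0192) and lower in withdrawn than persister cells (-5.60, adjusted p = 0.000644). BMP8B, at 30.8 ± 2.83 CPM in withdrawn, 0.896 ± 0.303 CPM in persister and 39.5 CPM in parental cells, was lower in persister than parental cells (-5.45, adjusted p = 2.30e-07) and higher in withdrawn than persister cells (5.10, adjusted p = 3.42e-08). BMP8A gave -5.08, adjusted p = 2.59e-05 and 4.87, adjusted p = 1.67e-06 in the same comparisons, but it is a close copy of BMP8B and the split of reads between them is uncertain.

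Of 9 tested receptors and co-receptors outside the members, 2 were higher and 1 lower in persister than parental cells (median 0.95), and 2 were higher and 2 lower in withdrawn than persister cells (median -0.53). NEO1, a receptor that binds the BMP co-receptors of the RGM family, and ENG, a co-receptor of BMP9 signalling, were higher in persister than parental cells (2.50, adjusted p = 0.00175 for NEO1 and 0.72, adjusted p = 0.0113 for ENG), and RGMA, a BMP co-receptor, was lower (-1.85, adjusted p = 0.0151). In withdrawn over persister cells RGMA was higher (3.64, adjusted p = 5.71e-06), while CRIM1, a membrane protein that binds BMPs, and ENG were lower (-1.59, adjusted p = 0.000437 for CRIM1 and -0.54, adjusted p = 0.000762 for ENG). Of 24 intracellular regulators, 4 were higher and 7 lower in persister than parental cells (median -0.41), and 7 were higher and 5 lower in withdrawn than persister cells (median 0.15). TRIM33 and NEDD4L, ubiquitin ligases that act on SMAD4 and on activated SMADs, were lower in persister than parental cells (-0.82, adjusted p = 0.000438 for TRIM33 and -1.08, adjusted p = 0.00243 for NEDD4L), and STUB1, a ubiquitin ligase, was higher (1.01, adjusted p = 0.00207). In withdrawn over persister cells TRIM33 was higher (0.76, adjusted p = 6.52e-06) and STUB1 and CITED2, a transcriptional coactivator of SMADs, were lower (-0.90, adjusted p = 1.88e-05 for STUB1 and -1.78, adjusted p = 4.65e-05 for CITED2).

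The comparison of withdrawn with parental cells asks what remained 4 weeks after the drug. No member was called in either direction by edgeR in the fit of all 11 libraries, where 0.431% of all tested genes were called, 0.312% higher and 0.118% lower. At an unadjusted p under 0.05, 3 members were higher and 1 lower of 44 tested, where 9.17% of all tested genes were higher and 6.07% lower. The median log2 fold change of the members was 0.08, beside 0.05 over all genes. INHBA came nearest to a call (log2 fold change 1.13 ± 0.22 (SE), adjusted p = 0.0523), with every withdrawn culture above the parental library. It was called in 9 of 18 alternatives, with adjusted p down to 0.000164. The calls here depend on the fit: DESeq2 called 2 members, INHBA and BMPR1B, both higher, where 5% of all genes were called, and limma-voom called INHBA alone, where 0.452% were. In a fit of the withdrawn and parental libraries alone, in which the persister cultures add nothing to the spread and 30.5% of all genes were called, 11 members were higher and 7 lower. Among them were ID3 (0.98, adjusted p = 4.56e-05), BMP4 (0.78, adjusted p = 0.0054) and BMPR1B (1.96, adjusted p = 0.000657) with higher levels and BMP7 (-1.65, adjusted p = 0.0037) and FST (-0.85, adjusted p = 0.0268) with lower ones. Without persister 1 and 5, where 9.04% of all genes were called, 3 were higher (INHBA, ID3 and BMPR1B) and 1 lower (BMP7). A single parental library cannot show how far parental cultures differ among themselves. In none of the 5 lists of other pathway genes was any gene called between withdrawn and parental cells. Among the smallest adjusted p in each were those of BMP5, GDF15 and AMH among ligands, NEO1, RGMA and ENG among receptors, FBN1 and THBS1 among antagonists and carriers, CREBBP, LDLRAD4 and TGFBRAP1 among regulators, and ATOH8, BHLHE40 and SPSB1 among targets, from 0.0722 for NEO1 to 0.676 for ENG.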

How the data were processed

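Poly(A) RNA of the A375 line was sequenced from stranded libraries, per the labels' protocols, and the 11 libraries were grouped by their titles into 5 withdrawn, 5 persister and 1 parental. The authors deposited 1 table of raw read counts, whole numbers for each gene and library, with no normalization and no pooling. Per the submitters' processing notes, bcl2fastq, HISAT2 and HTSeq were used with hg38, while their versions, the annotation and the strand setting were not given in these sources. Where strand was ignored, reads in exon bases shared by genes on the 2 strands could not be assigned to 1 of them. Overlaps of exon bases touch 15 of the 46 members, 13 of which overlap a gene of the opposite strand. All 58721 IDs matched GENCODE release 29, which gave symbols, GRCh38 coordinates and exon lengths. The exon length of a gene is that of all its annotated exons merged.

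Differences were tested in R 4.3.3 with edgeR 4.0.16 (filterByExpr by group, minimum count 10 and minimum total 15, TMM scaling, robust quasi-likelihood fit of all 11 libraries in 3 groups, 8 residual degrees of freedom, Benjamini-Hochberg adjustment over 23693 genes). CPM values use the TMM factors, which ranged from 0.941 to 1.03. The procedure was also run on simulated counts. These gave all groups the same spread per gene, so that run cannot show how calls fare where the groups differ in spread. Alternatives were other filters, scalings, DESeq2 1.42.0, limma-voom (limma 3.58.1), fits of only the groups compared, and fits that leave out libraries. Members whose log2 fold change reached 1 in either direction with a call are given by library, and of each list of other pathway genes the 3 with the smallest adjusted p in each comparison are named, except for an item that is not reported here. The members, lists and alternatives were chosen with earlier results of these data known.

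The shared culture number in the titles pairs withdrawn with persister samples. Deviations of same-numbered libraries from their group means correlated at 0.0484 to 0.0909 across genes, highest for the own number in 5 of 5. Replicate libraries all differed beyond sampling noise, so none was counted as a duplicate. Promoter windows are from RefSeq (GRCh38.p14), for 41 of the 46 members.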

Additional observations from a re-analysis of the deposited data

Results flagged for a closer look

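A library was marked when its gap to the nearest other library of its group of 5 was more than 0.71 of the group's whole range, Dixon's limit for 5 values. Among the 44 tested members in the withdrawn and persister groups, 6 of 88 groups held such a library, and chance marks about 1 in 20 groups. All 6 were in persister cultures. Persister 2 was the highest for FST, at 75.0 CPM, against 3.85 to 5.85 CPM in the other 4, and for TGFBR3, at 9.85 CPM, against 3.09 to 3.81 CPM in the other 4. FST encodes an activin antagonist and TGFBR3 a co-receptor, and in both genes persister 2 was nearer to the withdrawn cultures than the other persister cultures were. Persister 5 was the highest for LTBP3, at 333 CPM, against 192 to 230.3 CPM in the other 4, for BMP7, at 0.423 CPM, against 0.0614 to 0.152 CPM in the other 4, and for CHRD, at 0.219 CPM, against 0.0243 to 0.0738 CPM in the other 4. The BMP7 and CHRD levels rest on few counts. Persister 4 was the lowest for TGIF1, at 21.8 CPM, against 28.3 to 29.9 CPM in the other 4.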

How the results depend on the processing

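The counts of members called in withdrawn against persister cells, 14 higher and 15 lower, stayed within 14 to 15 and 14 to 18 under other filters, scalings, tests and sample choices, and within 14 to 16 and 14 to 20 when 1 library was left out. With the culture number as a replicate block they were 14 and 15, and the block changed no call of a member. Of the 29 members called there, 27 were called in every alternative that gave them an adjusted p. FST is among the 27, though DESeq2 gave no adjusted p for it. In persister against parental cells 12 of the 23 called members were called in every alternative, and counts with 1 library left out ran from 12 to 14 higher and from 9 to 10 lower. In the fit of the 2 groups alone, only the persister libraries set the spread. There 6 members were higher and 6 lower, and 2569 of all genes were called, against 7391 with all 11 libraries. With limma-voom the log2 fold changes of FST were -5.68, adjusted p = 0.000444, in persister over parental cells and 4.83, adjusted p = 2.32e-05, in withdrawn over persister cells. In withdrawn against parental cells, members called higher numbered 1 without a filter, 1 with at least 10 counts in 5 libraries, 2 with DESeq2, 1 with limma-voom, 11 in the fit of the 2 groups alone and 3 without persister 1 and 5. Members called lower numbered 7 in the fit of the 2 groups alone and 1 without persister 1 and 5. Of all genes, 102 were called in this comparison, and 155 with the stricter filter, 1184 with DESeq2, 6593 in the fit of the 2 groups alone and 2086 without persister 1 and 5. With 1 library left out, 0 to 2 members were higher, none lower, and 23 (without withdrawn 5) to 558 genes (without persister 5) were called. INHBA was called without persister 2, 4 or 5, and ID3 without persister 5. Apart from the construction of these fits, the cause was not tested. Of 82 pairs of a member and a comparison called in some fit, 0 changed sign in any, and of 50 called in none, 17 did, at log2 fold changes from -0.55 to 0.28.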
